A study of Mus musculus with 6 samples.

Results

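The natriuretic peptide system was followed through 9 genes in hearts taken on postnatal day 14 from C57BL/6J mice: the peptides Nppa, Nppb and Nppc, the receptors Npr1, Npr2 and Npr3, the processing proteases Corin and Furin, and the degrading peptidase Mme (neprilysin). They were picked by function and symbol, with earlier results of these data known, from 19938 genes measured on Affymetrix whole-transcript arrays. Of the 9 genes 9 were found, and each was read by a single transcript cluster, so no choice between clusters by brightness was needed. The ETX group held 3 hearts from animals given ETX for 1 week (replicates 6, 7 and 10), and the control group held 3 hearts from animals given the vehicle PBS for 1 week (replicates 3, 9 and 12). All 6 animals carried the same strain background without a stated genetic change, each heart was hybridised to an array of its own, and the labels call the hearts biological replicates. The labels do not spell out ETX and give neither dose nor sex. All values below are log2 signals as deposited, a difference of 1 on this scale is a doubling of signal, and SDs are over 3 hearts.

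Natriuretic peptides are hormones that heart muscle cells release when they are stretched. Nppa encodes atrial natriuretic peptide, stored in granules of the atria and made by the ventricles before birth and again under load, and Nppb encodes the B-type peptide, which responds to load in the ventricles. Nppc encodes the C-type peptide, a local signal of endothelium and other tissues. Corin, a membrane serine protease of cardiomyocytes, cuts the atrial precursor, and furin cuts the B-type and C-type precursors. The atrial and B-type peptides act on Npr1 and the C-type peptide on Npr2, both of which make cyclic GMP (cGMP), whereas Npr3 takes the peptides up and clears them. Neprilysin, the product of Mme, cleaves the circulating peptides at the cell surface.

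The arrays measured hearts, and some of them held transcripts of neighbouring tissue. Means over the 5 cardiomyocyte markers Tnnt2, Myh6, Actn2, Tnni3 and Ryr2 lay between 11.93 and 12.07 in ETX hearts and between 12.01 and 12.06 in PBS hearts. The mean of 11 lung epithelial markers lay between 3.51 and 3.58 in ETX hearts, and was 5.67, 7.03 and 3.41 in PBS replicates 3, 9 and 12. The mean of 12 atrial markers, Nppa not among them, was 6.82, 6.82 and 5.98 in ETX replicates 6, 7 and 10, and 7.25, 5.92 and 6.09 in PBS replicates 3, 9 and 12. The atrial mean was thus highest in 2 ETX hearts and 1 PBS heart, and the lung mean in 2 PBS hearts. Of the 12 atrial markers 7 were higher in each of ETX replicates 6 and 7 and PBS replicate 3 than in each other heart, Bmp10 among them although near the bottom of the scale in both ETX hearts (2.79 and 2.94). The other 5, Kcna5, Kcnj3, Nr2f1, Nr2f2 and Pam, did not follow that order. Kcna5, an atrial potassium channel gene, ran the other way, at 5.92, 5.87 and 6.45 in ETX replicates 6, 7 and 10, against 6.44, 6.85 and 7.19 in PBS replicates 3, 9 and 12 (limma adjusted p = 0.0914). Group means were higher in ETX hearts for 7 of the 12 and lower for 5.

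Of the 9 genes, Mme fell in ETX hearts and was the one gene that passed limma's test at an adjusted p of 0.05, against 3.56% of all 14953 genes tested in either direction of which 2.43% were lower and 1.14% higher in ETX. The other 8 did not pass. Nppa, Nppb and Nppc had higher means in ETX hearts, Npr1 and Npr2 lower ones, and Npr3, Corin and Furin differed little against their spread. Values of ETX and PBS hearts did not overlap for 4 of the 9 genes (Nppc, Npr1, Npr2 and Mme), where 27.7% of all genes tested did not overlap. Nppc was the one with ETX higher and the other 3 had ETX lower, against 11.6% and 16.1% of all genes tested. At an unadjusted p under 0.05 stood 6 of the 9, against 21.9% of all genes tested. The median difference of the 9 genes was -0.02, against -0.01 over all genes tested, and their median absolute difference was 0.29, against 0.10. Because the 9 genes were chosen with earlier results of these data known, these shares and medians describe them and test nothing.

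**Figure D1:**
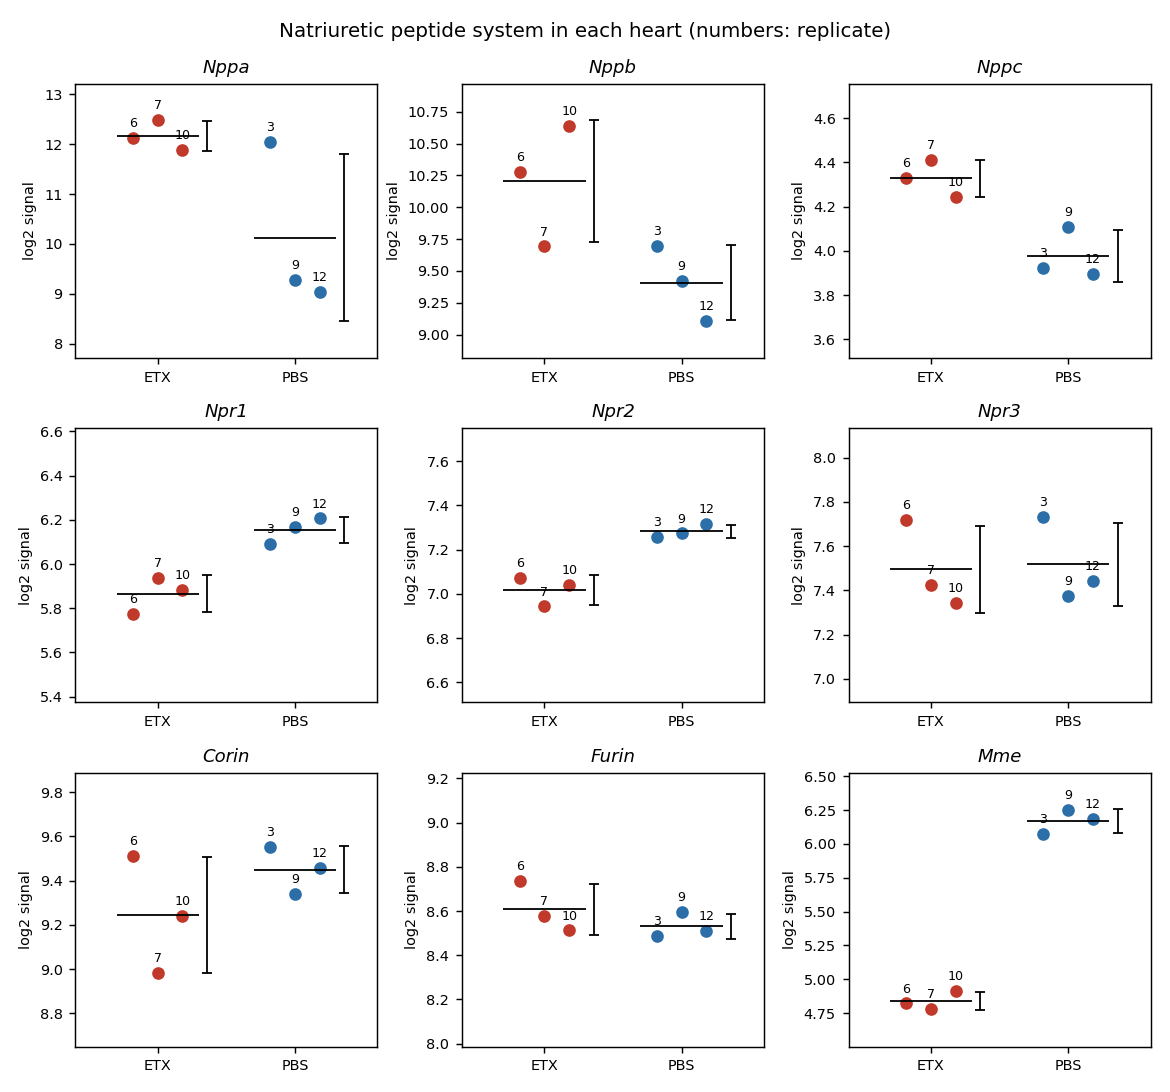
Log2 signal of each of the 9 genes (y axes, each panel with its own scale) in the 3 ETX hearts (red, left) and the 3 PBS hearts (blue, right); numbers are replicates, horizontal lines are means and bars beside them are SDs. Mme shows the widest gap between the groups, and in the Nppa panel PBS replicate 3 stands with the ETX hearts at 12.05.

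Nppa, the atrial natriuretic peptide gene, had one of the largest mean differences on the arrays but was split within the PBS group. Its log2 signal was 12.12, 12.48 and 11.89 in ETX replicates 6, 7 and 10, against 12.05, 9.28 and 9.04 in PBS replicates 3, 9 and 12. The 3 ETX hearts were all high, 2 PBS hearts were low, and PBS replicate 3 lay inside the ETX range, so the groups overlapped. The means were 12.16 ± 0.30 in ETX hearts and 10.12 ± 1.67 in PBS hearts (SD, n = 3 each). The difference was 2.04 on the log2 scale with an unadjusted 95% interval of 0.45 to 3.63, a 4.12-fold difference of means that did not pass (limma adjusted p = 0.14). Of the genes tested 0.1% had a larger absolute difference, and 0.241% a larger spread within groups. Without PBS replicate 3 the difference was 3.005 and passed (limma adjusted p = 0.00328; all settings tried gave 0.00328 to 0.323).

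PBS replicate 3, the PBS heart with high Nppa, was also the PBS heart with the high atrial marker mean. Its atrial marker mean of 7.25, which includes Bmp10, stood above those of all other hearts. Of the 7 markers high in ETX replicates 6 and 7 and PBS replicate 3, only Bmp10 and Sln were highest in PBS replicate 3. For Sln the margin was small, at 5.12, against 5.11 in ETX replicate 7. The atrial light chain Myl7 was at 9.03, 8.84 and 6.24 in ETX replicates 6, 7 and 10, against 8.46, 5.89 and 6.22 in PBS replicates 3, 9 and 12. Bmp10, a growth factor of the atrial wall, was at 7.71 in PBS replicate 3, against at most 2.94 in any other heart. ETX replicate 10 stood apart from the other ETX hearts: its atrial mean of 5.98 lay between those of PBS replicates 9 and 12, at 5.92 and 6.09. Nppa was 11.89 in ETX replicate 10, against 9.28 in PBS replicate 9 and 9.04 in PBS replicate 12, which is 6.13-fold and 7.19-fold higher in single hearts that were set side by side after their values were seen. The likeness holds for the mean and not for each marker: Pam was at 10.36 in ETX replicate 10, against 9.68 and 9.79 in PBS replicates 9 and 12, and Stard10 at 6.74, against 7.35 and 7.17. With the atrial marker mean as a covariate in the fit of all 6 hearts, the Nppa difference was 1.84 and did not pass (limma adjusted p = 0.0567). The part of atrial tissue in the Nppa result was not tested.

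Nppb, the B-type peptide gene, was higher on average in ETX hearts, with a smaller difference and less spread than Nppa. It was at 10.28, 9.69 and 10.64 in ETX replicates 6, 7 and 10, against 9.69, 9.42 and 9.10 in PBS replicates 3, 9 and 12. The lowest ETX heart and the highest PBS heart met at the same level, and the other values were apart. The means were 10.20 ± 0.48 in ETX hearts and 9.41 ± 0.295 in PBS hearts (SD, n = 3 each), a difference of 0.80 (unadjusted 95% interval 0.26 to 1.34) or 1.74-fold that did not pass (limma adjusted p = 0.106). The heart with the highest Nppb, ETX replicate 10, was the ETX heart with the lowest atrial marker mean. With the atrial marker mean as a covariate the Nppb difference was 0.80, as without it (limma adjusted p = 0.144). Over all settings with more than 1 heart per group the adjusted p ran from 0.066 to 0.243 (limma). The atrial marker mean was high in hearts of both groups, so as a covariate it could change the difference only little. The part of atrial tissue in the Nppb result was not tested.

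**Figure D2:**
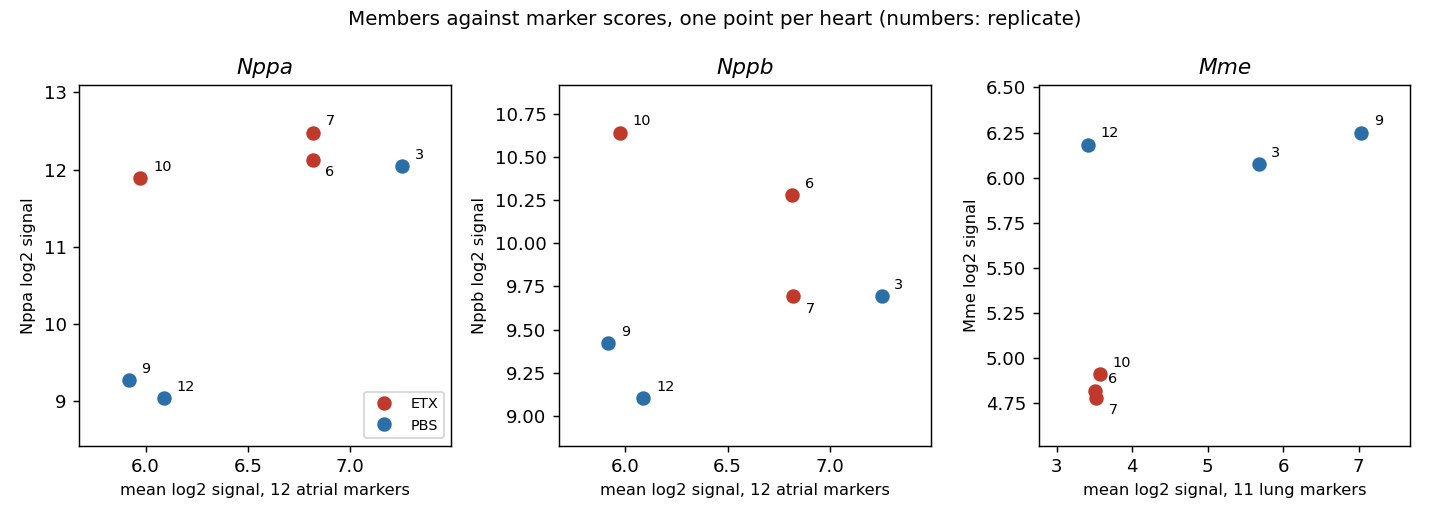
Log2 signal of Nppa and Nppb against the mean log2 signal of 12 atrial markers (left and middle), and of Mme against that of 11 lung markers (right), with 1 point per heart (ETX red, PBS blue, numbers are replicates). At an atrial mean near 6, ETX replicate 10 lies at 11.89 for Nppa and PBS replicates 9 and 12 at 9.28 and 9.04; Mme is at 4.91 or less in the ETX hearts and at 6.18 in PBS replicate 12, whose lung mean of 3.41 is below theirs.

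Nppb and Nppa are neighbours on chromosome 4 with 0 protein-coding genes between them in the RefSeq table, so their promoters are shown together as the pair of sequences whose genes had the most positive mean differences among the 9. Each window runs from 250 bases before the RefSeq start to 50 bases from it (GRCm38.p6, plus strand), and capitals mark matches on either strand to 5 short motifs, which were chosen with the sequences in view: GATAA, read by Gata4 and its relatives, AAGTG, read by Nkx2-5, GTGTGA, read by T-box factors, GGAATG, read by Tead factors, and TATAAA, a core promoter element. The sequences are those of RefSeq.
Nppa, chr4:148000472-148000771: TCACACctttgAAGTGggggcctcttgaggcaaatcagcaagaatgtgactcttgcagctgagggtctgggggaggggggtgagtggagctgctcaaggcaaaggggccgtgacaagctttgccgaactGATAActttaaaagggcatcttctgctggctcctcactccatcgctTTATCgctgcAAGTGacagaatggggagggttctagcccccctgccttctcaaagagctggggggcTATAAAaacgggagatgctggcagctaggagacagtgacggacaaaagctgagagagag
Nppb, chr4:147985650-147985949: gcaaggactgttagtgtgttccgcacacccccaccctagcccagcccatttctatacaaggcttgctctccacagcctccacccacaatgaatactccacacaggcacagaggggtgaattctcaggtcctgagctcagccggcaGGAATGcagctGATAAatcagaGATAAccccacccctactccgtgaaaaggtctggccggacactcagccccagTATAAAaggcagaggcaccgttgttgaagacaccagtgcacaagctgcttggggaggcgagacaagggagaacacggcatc

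The window of Nppa held 2 matches to GATAA, 2 to AAGTG, 1 to GTGTGA and 1 to TATAAA. The window of Nppb held 2 matches to GATAA, 1 to GGAATG and 1 to TATAAA, and no motif overlapped another in either. Both genes thus share the GATAA and TATAAA letters, and of the pair the Nppa window alone held AAGTG and GTGTGA. Among 32851 windows of this length in the table, 25.4% held GATAA, 46.4% AAGTG, 14.5% GTGTGA, 14.7% GGAATG and 13.6% TATAAA. The 10 windows of the other 7 genes held no GATAA or GTGTGA, but they did hold the other motifs. TATAAA was also in the Nppc window and in 1 Furin window. That Furin window held 5 matches to AAGTG, more than the Nppa window, and 1 Mme window held GGAATG. A match is a description of letters and not of a bound factor.

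The genes on either side of the pair did not share its direction. The order in the table is 2510039O18Rik, Nppb, Nppa and Clcn6, named here by position after the values of the pair were known. Clcn6, a chloride transporter gene, was at 5.73 ± 0.028 in ETX hearts and 5.84 ± 0.13 in PBS hearts (SD, n = 3 each, limma adjusted p = 0.466). 2510039O18Rik was at 6.83 ± 0.024 in ETX hearts and 6.99 ± 0.023 in PBS hearts and did not pass either (limma adjusted p = 0.172).

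Nppc, the C-type peptide gene, was dim and separated the groups by a small step. It was at 4.33, 4.41 and 4.24 in ETX replicates 6, 7 and 10, against 3.92, 4.11 and 3.896 in PBS replicates 3, 9 and 12. Each ETX heart was above each PBS heart, with 0.13 between the nearest. The means were 4.33 ± 0.084 in ETX hearts and 3.98 ± 0.12 in PBS hearts (SD, n = 3 each), a difference of 0.35 (unadjusted 95% interval 0.16 to 0.54) that did not pass (limma adjusted p = 0.0591). Array summaries compress differences near the low end, where Nppc lies.

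The receptors that make cGMP, Npr1 and Npr2, were both slightly lower in every ETX heart. Npr1, the receptor of the atrial and B-type peptides, was at 5.78, 5.94 and 5.88 in ETX replicates 6, 7 and 10, against 6.09, 6.17 and 6.21 in PBS replicates 3, 9 and 12. Its means were 5.87 ± 0.083 in ETX hearts and 6.15 ± 0.059 in PBS hearts (SD, n = 3 each), a difference of -0.29 (unadjusted 95% interval -0.45 to -0.12). It did not pass (limma adjusted p = 0.068).

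Npr2, the receptor of the C-type peptide, was at 7.07, 6.94 and 7.04 in ETX replicates 6, 7 and 10, against 7.26, 7.27 and 7.31 in PBS replicates 3, 9 and 12. The groups lay apart by 0.19, and the PBS hearts were close together. Its means were 7.02 ± 0.068 in ETX hearts and 7.28 ± 0.029 in PBS hearts (SD, n = 3 each), a difference of -0.26 (unadjusted 95% interval -0.41 to -0.11) that did not pass (limma adjusted p = 0.0694). Both receptors passed when only genes above the median of gene means were tested (limma adjusted p = 0.0376 for Npr1 and 0.0381 for Npr2, ranges over all settings 0.0376 to 0.598 and 0.0381 to 0.63); 9.12% of all genes passed in that setting.

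Npr3, the clearance receptor, did not differ between the groups beyond its spread and varied among hearts of both groups. It was at 7.72, 7.42 and 7.34 in ETX replicates 6, 7 and 10, against 7.73, 7.38 and 7.44 in PBS replicates 3, 9 and 12. The groups overlapped over nearly their whole range, and ETX replicate 6 and PBS replicate 3 were the highest. The means were 7.49 ± 0.20 in ETX hearts and 7.52 ± 0.19 in PBS hearts (SD, n = 3 each), a difference of -0.02 with an unadjusted 95% interval of -0.31 to 0.27 (limma adjusted p = 0.939). The sign of this difference turned to 0.08 without PBS replicate 3. Npr3 is abundant in endocardium, and 0 of 5 other endocardial markers passed. At an unadjusted p under 0.05 (limma) stood 2 of the 5, against 21.9% of all genes tested. The groups did not overlap for 3, against 27.7%: Adgrg6, which differed by -0.33, Tmem108, by 0.25, and Nfatc1, by -0.13.

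The processing proteases did not separate the groups. Corin was at 9.51, 8.98 and 9.24 in ETX replicates 6, 7 and 10, against 9.55, 9.34 and 9.46 in PBS replicates 3, 9 and 12. Its ETX hearts were spread over 0.53 and its PBS hearts over 0.21, and the ranges overlapped. The means were 9.24 ± 0.26 in ETX hearts and 9.45 ± 0.11 in PBS hearts (SD, n = 3 each), with a difference of -0.21 (unadjusted 95% interval -0.50 to 0.09, limma adjusted p = 0.4).

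Furin was at 8.74, 8.58 and 8.51 in ETX replicates 6, 7 and 10, against 8.49, 8.59 and 8.51 in PBS replicates 3, 9 and 12. Its difference of 0.08 had an unadjusted 95% interval of -0.10 to 0.26 and did not pass (limma adjusted p = 0.613). All 6 hearts lay within 0.25 of each other, the smallest range of the 9 genes.

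Mme, the neprilysin gene, fell in all 3 ETX hearts. It was at 4.82, 4.78 and 4.91 in ETX replicates 6, 7 and 10, against 6.08, 6.25 and 6.18 in PBS replicates 3, 9 and 12. The hearts of each group lay within 0.17 of each other and the groups were 1.16 apart. The means were 4.84 ± 0.068 in ETX hearts and 6.17 ± 0.087 in PBS hearts (SD, n = 3 each), a 2.52-fold lower level in ETX (log2 difference -1.33, unadjusted 95% interval -1.501 to -1.16, limma adjusted p = 0.000555). Of all genes tested 0.288% had a larger absolute difference. With each heart left out in turn Mme passed in 6 of 6 fits, with differences of -1.38 to -1.29. The lung marker mean was higher in PBS replicates 3 and 9, at 5.67 and 7.03, than in PBS replicate 12, at 3.41, and Mme was at 6.08, 6.25 and 6.18 in these hearts. With the lung marker mean in the fit the difference was -1.31 (limma adjusted p = 0.013, range over all settings 0.000153 to 0.245). The part of lung tissue in the Mme result was not tested. The 0.245 belongs to the fit of 1 ETX heart against 2 PBS hearts without those with high atrial markers, where the difference was -1.30.

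**Figure D3:**
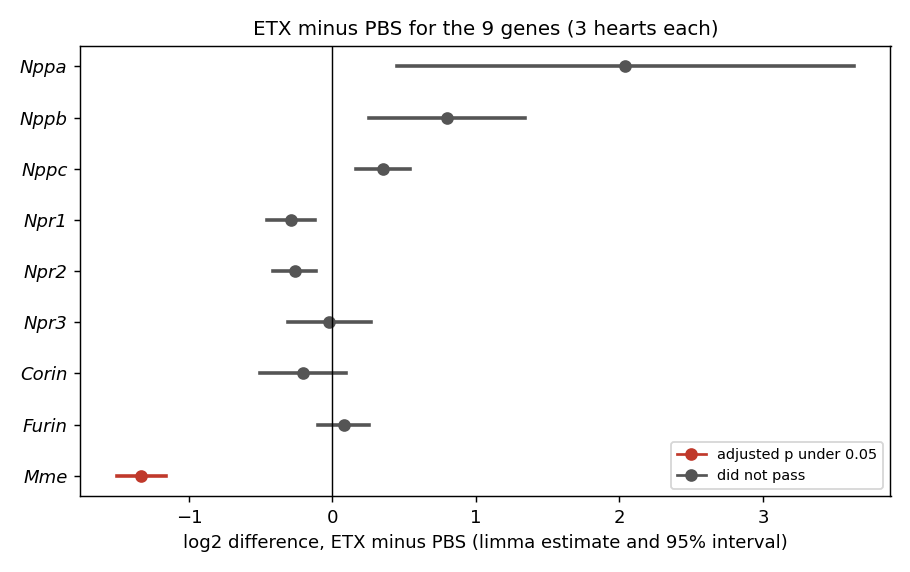
Difference of log2 means, ETX minus PBS, for the 9 genes (x axis, log2 units; points are limma estimates, bars their unadjusted 95% intervals, 3 hearts per group). Mme at -1.33 is the only gene past the adjusted threshold (red); the Nppa interval of 0.45 to 3.63 is the widest.

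Neprilysin sits on fibroblasts, epithelia and some leukocytes. Of the markers tested, 1 of 7 fibroblast, 2 of 7 leukocyte and 0 of 9 lung epithelial markers passed as lower in ETX hearts. Over all genes tested that share was 2.43%. Means were lower in ETX hearts for 6, 6 and 9 of these markers, and the median difference of the lung markers was -1.67. The fibroblast marker was the receptor gene Pdgfra (7.95 ± 0.078 in ETX, 8.46 ± 0.14 in PBS, SD, n = 3 each, limma adjusted p = 0.0302), and the list's mean lay between 9.26 and 9.41 in ETX hearts and between 9.40 and 9.56 in PBS hearts, with overlap. Tcf21, a fibroblast transcription factor, differed by 0.10 and did not pass (limma adjusted p = 0.47). The leukocyte markers were the macrophage genes Csf1r and C1qa (limma adjusted p = 0.0056 and 0.0227), with list means of 5.44 to 5.54 in ETX hearts and 5.50 to 6.36 in PBS hearts, which also overlapped. The B cell gene Cd79a differed by 0.03 (limma adjusted p = 0.899). Of 11 endothelial markers Tie1, Esam and Cdh5 fell (limma adjusted p = 0.0129, 0.036 and 0.0462). The list means, 8.46 to 8.63 in ETX hearts and 8.75 to 8.78 in PBS hearts, did not overlap. Means were lower in ETX hearts for 10 of the 11 markers and higher for 1, with a median of -0.25. At an unadjusted p under 0.05 (limma) stood 7, against 21.9% of all genes tested. In whole hearts fewer cells of a type and less RNA per cell cannot be told apart, and the part of cell makeup in the Mme and Npr1 results was not tested. Of 8 smooth muscle and pericyte markers, 5 cardiomyocyte markers, 3 adipocyte markers and 9 lung markers tested, 0 passed. At an unadjusted p under 0.05 (limma) stood 2, 2, 0 and 3 of them, against 21.9% of all genes tested. Of 5 ventricular markers 1 passed as higher, the transcription factor Irx4 (limma adjusted p = 0.0279), against 1.14% of all genes tested. Hey2 differed by 0.47, and Myl2, Myl3 and Myh7 by -0.02, -0.02 and -0.11. These did not pass (limma adjusted p from 0.212 to 0.928), and the list median was -0.02.

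Among other peptidases of vasoactive peptides, 2 of 11 tested passed as lower and 0 as higher, against 2.43% and 1.14% of all genes tested. At an unadjusted p under 0.05 (limma) stood 6, against 21.9%, and the median log2 difference was -0.04. Anpep, aminopeptidase N, was at 6.82 ± 0.086 in ETX hearts and 7.51 ± 0.11 in PBS hearts (SD, n = 3 each) and was 1.61-fold lower (limma adjusted p = 0.00857). Enpep, aminopeptidase A, which trims angiotensin peptides, was 1.40-fold lower (limma adjusted p = 0.0385). The relatives of neprilysin that were tested did not pass: the endothelin-converting enzyme genes Ece1 and Ece2 differed by -0.04 and 0.25 (limma adjusted p = 0.761 and 0.239) and Ecel1 by 0.30 (0.0706). Ide, the insulin-degrading enzyme, which also cleaves natriuretic peptides, differed by -0.25 (limma adjusted p = 0.0913), and Prep, a prolyl peptidase, by 0.22 (0.124). The Anpep call held in 6 of 6 fits without 1 heart and the Enpep call in 0.

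Of the proprotein convertases other than furin, 1 of 5 tested passed as lower, against 2.43% of all genes tested. Pcsk6, which activates corin, was at 7.77, 7.60 and 7.74 in ETX replicates 6, 7 and 10, against 8.44, 8.43 and 8.56 in PBS replicates 3, 9 and 12. The groups were well apart, and the level was 1.71-fold lower in ETX hearts (limma adjusted p = 0.00587), a call that held in 6 of 6 fits without 1 heart and with the lung marker mean in the fit (0.0296). Mbtps1, Pcsk5 and Pcsk4 differed by -0.07, 0.05 and 0.02 and did not pass (limma adjusted p from 0.636 to 0.921). Of the related ligands and receptor cyclases, 0 of 4 tested passed (limma, 0 at an unadjusted p under 0.05). Guca2a, Guca2b, Gucy2c and Gucy2e were all dim, between 3.41 and 4.49 in all hearts, and Ostn, a ligand of Npr3, lay below the level at which genes were tested.

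Downstream of the receptors, 1 of 11 tested cGMP targets and soluble cyclase genes passed as lower, against 2.43% of all genes tested. Of these differences 10 of 11 were below 0, with a median of -0.12, against -0.01 over all genes tested. Rgs2, which ends signalling from vasoconstrictor receptors and is switched on by cGMP-dependent kinase, was at 6.89, 6.67 and 6.64 in ETX replicates 6, 7 and 10, against 7.59, 7.56 and 7.75 in PBS replicates 3, 9 and 12. It was 1.86-fold lower in ETX hearts without overlap (limma adjusted p = 0.006) and passed in 6 of 6 fits without 1 heart. The cGMP-dependent kinase gene Prkg1 was nearly level between the groups, with a difference of -0.01 (limma adjusted p = 0.935), and the soluble guanylyl cyclase genes Gucy1a2, Gucy1a1 and Gucy1b1 differed by -0.18, -0.18 and 0.00 (limma adjusted p from 0.288 to 0.996). Pln, the phospholamban gene, differed by -0.12 (0.298).

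Of 10 phosphodiesterases tested, which break down cGMP or are controlled by it, 1 passed as lower, against 2.43% of all genes tested. At an unadjusted p under 0.05 (limma) stood 4, against 21.9%. Means were lower in ETX hearts for 8 of the 10 (median -0.12, against -0.01 over all genes tested). Pde2a, which cGMP activates, was at 7.90 ± 0.012 in ETX hearts and 8.24 ± 0.042 in PBS hearts (SD, n = 3 each, 1.26-fold lower, limma adjusted p = 0.0318), but passed in 0 of 6 fits without 1 heart. Pde1c, Pde3a and Pde1b differed by -0.21, -0.21 and -0.29 without passing (limma adjusted p = 0.124, 0.148 and 0.222). Pde5a and Pde9a, which are specific for cGMP, differed by -0.04 and -0.15 and did not pass (0.771 and 0.388).

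**Figure D4:**
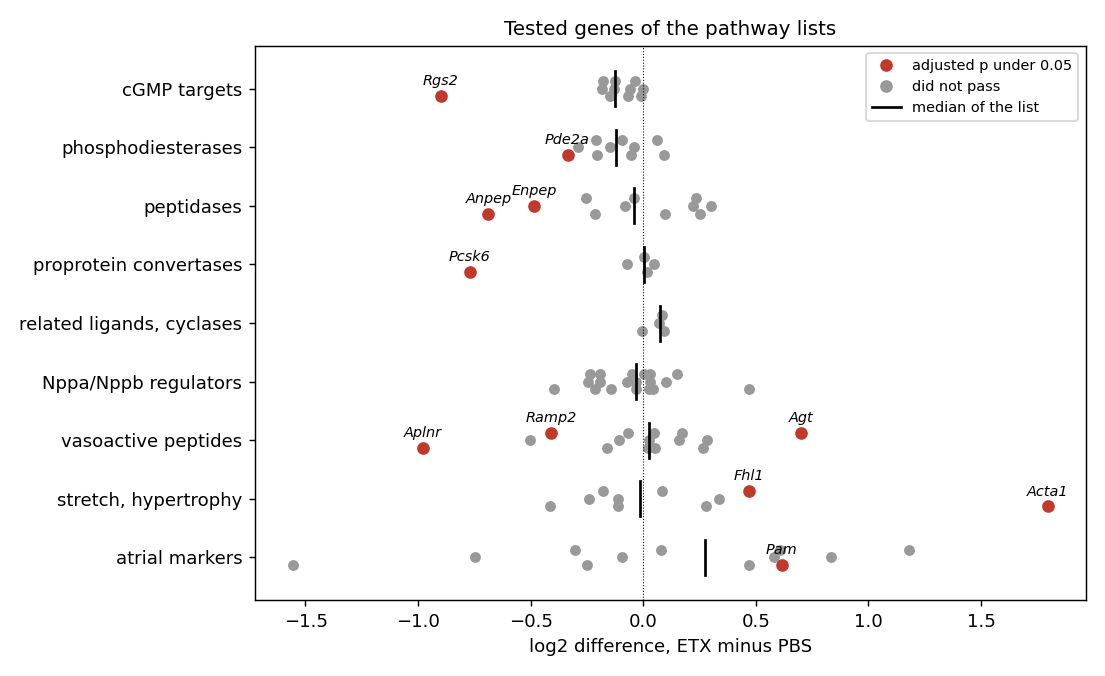
Difference of log2 means, ETX minus PBS (x axis, log2 units), of every tested gene in 9 lists around the natriuretic peptides; red points passed an adjusted p of 0.05 and are named, grey points did not, and black bars are list medians. Rgs2, Pde2a, Anpep, Enpep, Pcsk6, Aplnr and Ramp2 lie on the lower side, and Agt, Fhl1, Acta1 and Pam on the higher side.

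No transcription factor that acts on Nppa and Nppb was called: 0 of 19 passed (limma, median difference -0.03). At an unadjusted p under 0.05 (limma) stood 7 of the 19, against 21.9% of all genes tested. The activators Gata4, Nkx2-5, Tbx5, Mef2c and Srf differed by -0.05, 0.10, 0.03, -0.07 and -0.03. Tbx3, a repressor of Nppa in the conduction system, was at 7.11, 6.99 and 7.18 in ETX replicates 6, 7 and 10, against 7.34, 7.61 and 7.50 in PBS replicates 3, 9 and 12, without overlap and without passing (difference -0.39, limma adjusted p = 0.0551). Mef2a, Zfpm2 and Tead1 followed with differences of -0.21, -0.24 and -0.19 (limma adjusted p from 0.113 to 0.186). Hey2 and Hand1 went the other way without overlap, by 0.47 and 0.15, and did not pass (limma adjusted p = 0.212 for each). Means were higher in ETX hearts for 8 of the 19 and lower for 11.

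Among other stretch and hypertrophy genes of cardiomyocytes, 2 of 10 passed as higher and 0 as lower, against 1.14% and 2.43% of all genes tested (median -0.01). At an unadjusted p under 0.05 (limma) stood 7, against 21.9%, and the groups did not overlap for 7, against 27.7%. Without passing, Des and Xirp2 were higher and Csrp3, Rcan1 and Myh7 lower in every ETX heart. Acta1, skeletal muscle actin, and Fhl1, a stretch sensor of the sarcomere, had differences of 1.80 and 0.47 (limma adjusted p = 0.00617 and 0.0471). Ankrd1, a stretch-responsive nuclear factor, differed by -0.42 with overlap, and Myh7, the foetal heavy chain, by -0.11 (limma adjusted p = 0.171 and 0.351). Of the 10 genes of this list 5 had higher and 5 lower means in ETX hearts. The part of load in the Nppa and Nppb results was not tested. Of the 12 atrial markers Pam rose, an enzyme of atrial granules that amidates peptides. It was at 10.56, 10.50 and 10.36 in ETX replicates 6, 7 and 10, against 10.11, 9.68 and 9.79 in PBS replicates 3, 9 and 12 (limma adjusted p = 0.0341, 1 of 6 fits without 1 heart passed). ETX replicate 10, low in Myl7, Myl4 and Sln, was above all PBS hearts in Pam.

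Of 15 tested genes of the angiotensin, endothelin, adrenomedullin, apelin and kinin systems, 1 passed as higher and 2 as lower (median 0.03). Over all genes tested these shares were 1.14% and 2.43%. At an unadjusted p under 0.05 (limma) stood 7 of the 15, against 21.9%. Agt, the precursor of angiotensin, was at 6.06, 5.75 and 5.69 in ETX replicates 6, 7 and 10, against 5.12, 5.16 and 5.13 in PBS replicates 3, 9 and 12, which is 1.62-fold higher in ETX (limma adjusted p = 0.0158). It lost the call without ETX replicate 7 or PBS replicate 3 (limma adjusted p up to 0.0585) and with the lung marker mean in the fit (0.0802). The apelin receptor Aplnr and the adrenomedullin receptor partner Ramp2 were 1.97-fold and 1.33-fold lower (limma adjusted p = 0.0116 and 0.0256), and Ramp2 passed in 0 of 6 fits without 1 heart. Adm, adrenomedullin, had a difference of 0.26 and did not pass (limma adjusted p = 0.0977).

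In the 18 lists, with 174 entries measured, 18 genes were called, each counted once. The 174 include entries too dim to be tested, and Hey2 and Myh7 stand on more than 1 list. They are thus not a count of genes tested, while 3.56% of all 14953 genes tested were called. The lists were chosen with earlier results of these data known. The calls of Acta1, Anpep, Csf1r, Pcsk6 and Rgs2 held in 6 of 6 fits without 1 heart, and the other 13 lost theirs in at least 1 of them. The call of Aplnr was lost when PBS replicate 3 was left out (0.0514 by limma, adjusted p), that of Tie1 when either ETX replicate 7 or PBS replicate 3 was (up to 0.0604), that of C1qa in 4 fits (up to 0.0921), those of Pdgfra and Cdh5 in 5 (up to 0.101 and 0.155), and those of Esam, Irx4 and Fhl1 in 6 (up to 0.119, 0.105 and 0.15). With the lung marker mean in the fit Acta1, Csf1r, C1qa, Tie1, Pcsk6 and Rgs2 passed, and the other 12, Anpep among them (limma adjusted p = 0.0598), did not.

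The genes with the most similar pattern over the 6 hearts were sought for Nppa, Nppb and Mme by the root mean square difference of log2 values after each gene was centred on its mean. Nppa had no close match: its nearest genes Tmem163, Myl7, Acta1, Myl4 and Sln lay 0.91 to 0.96 away, where Nppa itself varied by 1.42 about its mean. Of these, Myl7, Myl4 and Sln are atrial markers, high in ETX replicates 6 and 7 and PBS replicate 3 and low in ETX replicate 10, and Acta1 is high in all ETX hearts. Nppb, which varied by 0.51, was matched more closely by Tmem116 at 0.137, Mrap at 0.203, Doc2g at 0.233, Tmem267 at 0.245 and Trnp1 at 0.252. Mme, which varied by 0.67, was nearest to the MHC class II gene H2-Ab1 at 0.097, followed by the water channel Aqp1 at 0.155, the insulin receptor substrate Irs2 at 0.161, the phospholipase Pla2g5 at 0.17 and the chemokine Cxcl9 at 0.19. H2-Ab1 was at 4.77, 4.65 and 4.90 in ETX replicates 6, 7 and 10, against 6.18, 6.37 and 6.31 in PBS replicates 3, 9 and 12. All 5 genes nearest to Mme passed the test as lower in ETX, which the similarity to Mme brings with it.

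**Figure D5:**
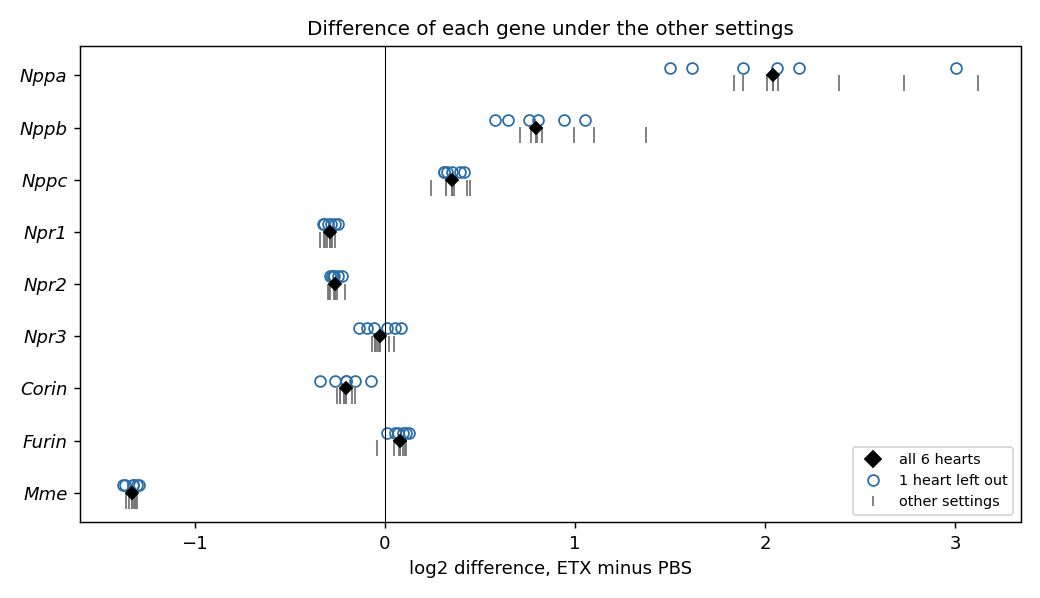
Difference of log2 means, ETX minus PBS (x axis, log2 units), of each gene with all 6 hearts (black diamonds), with 1 heart left out (blue circles) and under the other settings (grey ticks). Mme stays between -1.38 and -1.29, Nppa runs from 1.5 to 3.12, and Npr3 and Furin cross 0.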

How the data were processed

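The deposited values are log2 signals that the authors made with Affymetrix Expression Console and RMA, per the submitters' processing notes (no version named). RMA brings arrays to a common distribution and combines the probes of a cluster, which compresses differences of dim transcripts. Detection calls were not used here. A platform annotation gave 1 symbol to 21789 of 35556 transcript clusters, several to 1621 and none to 12146. The brightest cluster stood for a gene, and genes with a mean under the lower quartile (3.45) were not tested, which left 14953. All 9 members were tested. The comparison was a two-sided limma test (version 3.58.1 in R 4.3.3, lmFit and eBayes), and p-values were adjusted after Benjamini and Hochberg over all genes tested. The number of arrays limits the precision. Simulated data for this comparison gave back 90% of 100 genes changed 1.5-fold and 98% of 100 changed 2-fold among 14953. At either fold 11 other genes were called as well. These rates do not carry over to genes with a wide spread within groups. Nppa and Nppb differed 4.12-fold and 1.74-fold without passing, and 0.241% and 1.43% of genes tested had a larger spread.

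The 9 members and 18 gene lists were chosen with earlier results of these data known. Of 184 list entries 174 were measured. The genes named are the members, called list genes, up to 4 list genes with the smallest p, and the 5 most similar patterns. Further list genes (such as the activators of Nppa, Prkg1, Pde5a, Ece1, Ide, Ankrd1 and Hey2) were named for their role or direction after their values were seen. Promoters of 9 of 9 genes came from RefSeq (GRCm38.p6). The build of the array annotation is not given in the sources used here. Figures used matplotlib 3.10.9 in Python 3.11.15.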

Additional observations from a re-analysis of the deposited data

How the results depend on the processing

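With 21 alternatives each (20 for Nppc, which the filter at the median removes), 173 of the 188 values of single members kept their direction and their side of the threshold. Alternatives that changed only the filter, the eBayes options, the threshold or the clusters used left each member's difference the same. The direction was fixed in advance in those, so the count says little about how stable it is. The number of members called, 1 with all hearts, was 3 with genes above the median only (909 genes called in all, against 533), 2 with an intensity trend in eBayes (870 in all), and 4 at an adjusted p of 0.1 (1259 in all). It was 2 without PBS replicates 3 and 9 (19 in all), which leaves PBS replicate 12 as the single PBS heart, assumed to vary like the others, and 0 without PBS replicate 3 and ETX replicates 6 and 7 (2 in all), a setting added after seeing the data that leaves 1 ETX heart. With 1 heart left out in turn it was 1 to 2, and 94 to 241 genes were called in all; fewer hearts leave fewer degrees of freedom. The genes called in all were 294 with all transcript clusters tested, 60 at an adjusted p of 0.01, 329 with the atrial and 80 with the lung marker mean as a covariate. The share of called genes that were lower in ETX was 78.6% with arrays centred on their median, 58.3% with a further quantile normalization and 68.1% as deposited. The difference of Npr3, -0.02 with all hearts, ran from -0.135 to 0.084 with 1 heart left out, turning positive without ETX replicate 7 (0.0131), ETX replicate 10 (0.0535) or PBS replicate 3 (0.084), and was 0.0229 after a further quantile normalization and 0.0501 without PBS replicates 3 and 9. Furin, 0.08 with all hearts, turned to -0.0405 without PBS replicate 3 and ETX replicates 6 and 7. The cause of these changes was not tested. No paired analysis was possible because the groups share no replicate number. Dim signals, Nppc's among them, limit the folds that can be read.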
